A study of Homo sapiens with 6 samples.

Results

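The mitochondrial ribosomal protein genes were taken as the genes of the count table whose symbol is MRPL or MRPS followed by a number and, in some cases, a letter from A to C. The rule matched 78 rows of the 57820 in the table and 76 symbols, since 2 symbols, MRPL30 among them, had 2 rows each, of which the row with the larger total was kept. There were 47 MRPL and 29 MRPS symbols. By the place of the protein in the ribosome, 49 belong to the large subunit and 26 to the small subunit. MRPS18A and MRPS30 are parts of the large subunit in spite of their names, and MRPS36 belongs to the 2-oxoglutarate dehydrogenase complex and not to the ribosome. RNA was measured in M14 cells, an established human melanoma line, that carry an inducible shRNA against STAG2, a subunit of the cohesin complex, which holds DNA in loops. The shRNA is switched on by doxycycline. Cells were cultured for 5 days with doxycycline (KD, 3 libraries) or without it (WT, 3 libraries). All cells, WT included, carry the shRNA construct and were kept in medium with puromycin and penicillin-streptomycin, and all come from 1 cell line. The labels list no cells given doxycycline without a knockdown. Doxycycline also acts on the mitochondrial ribosome, so the effect of the drug and that of the knockdown cannot be told apart in KD against WT. The labels do not state whether the 3 libraries of a group came from separate cultures. The authors describe their RNA-seq samples (n = 3) as biologically independent. The p-values measure only the spread between these libraries.

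Mitochondria keep their own ribosome, which translates the mRNAs of the 13 protein-coding genes of mitochondrial DNA, all of them for subunits of the respiratory chain and ATP synthase. The RNA of that ribosome comes from mitochondrial DNA, whereas its proteins are encoded in the nucleus, made in the cytosol and imported. A part of them descends from the proteins of the bacterial ribosome and the rest were added in the mitochondrial line. Tetracyclines such as doxycycline bind the small subunit of the bacterial ribosome and slow translation in mitochondria as well. Of the 75 genes for true ribosomal proteins, 46 have a bacterial counterpart and 29 are found in the mitochondrial ribosome only.

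The genes lie apart in the genome. The 74 that matched the annotation (GENCODE 44 on GRCh37) fell on 21 chromosomes, with at most 8 on one of them, chromosome 2. MRPS21 and MRPL45 did not match. What the genes share near their start sites was read from RefSeq promoters (GRCh38.p14), which cover 250 bases before the start of transcription and 50 after it and were matched for 67 of the 76 genes. The motifs searched, on both strands, were CCGGAAG for ETS factors, AAGATGGCG for YY1, GCGCATGCG for NRF1, CACGTG for the E-box, CCAAT for the CCAAT box and GGGCGG for SP factors. The ETS and YY1 strings can overlap in AAG. The ETS string was present in 41.8% of the 67 promoters, in 10.7% of all 27305 promoters of the table and in 18.6% of those of the 10141 tested genes with a promoter. The YY1 string was present in 19.4%, against 1.85% of all promoters and 3.87% of those of tested genes. The other strings are given in the same order. The NRF1 string was present in 4.48%, 2.10% and 3.67%, the E-box in 8.96%, 7.43% and 10.2%, the CCAAT box in 29.9%, 35.7% and 36.9%, and the SP string in 61.2%, 44.6% and 69.5%. A match is a string in the window, and binding was not measured here.

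Windows of 29 bases around the YY1 string could be cut at 13 places in 12 of the genes. In 11 of them the string reads in the direction of the gene, and in 9 it begins after the start of transcription. The distances ran from -223 to 24 bases, and the following 5 windows, with the string in capitals, were chosen from those close after the start to show its surroundings in genes of both subunits. MRPL46, the gene with the smallest p-value in KD against WT, has it from position 9, counted from 1 at the start of transcription (chr15:88467362-88467390, minus strand). MRPL42 also has it from position 9 (chr12:93467512-93467540, plus strand). MRPS10 (chr6:42217834-42217862, minus strand) and MRPS18A (chr6:43687764-43687792, minus strand) have it from position 10, and MRPS30 (chr5:44808950-44808978, plus strand) from position 14.
MRPL46: gggagaacgaAAGATGGCGgcgcccgtaa
MRPL42: ggattgaaacAAGATGGCGggttcgtggt
MRPS10: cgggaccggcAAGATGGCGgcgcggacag
MRPS18A: taggtttttgAAGATGGCGgccctcaagg
MRPS30: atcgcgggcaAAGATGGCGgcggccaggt

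The 120 bases before the start of the 3 genes that were called with a replicate block are given next, on the strand of the gene and with every match of the 6 motifs in capitals. They come from chr15:88467389-88467508 (MRPL46, minus strand), chr2:27771599-27771718 (MRPL33, plus strand) and chr9:137551759-137551878 (MRPL41, plus strand). MRPL46 has no match in this stretch, MRPL33 has an ETS match next to the start, and MRPL41 has SP and CCAAT matches.
MRPL46: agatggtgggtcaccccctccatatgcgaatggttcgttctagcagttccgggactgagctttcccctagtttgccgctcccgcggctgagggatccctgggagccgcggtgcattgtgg
MRPL33: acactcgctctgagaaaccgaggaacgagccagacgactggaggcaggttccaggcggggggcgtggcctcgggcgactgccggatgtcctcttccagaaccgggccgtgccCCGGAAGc
MRPL41: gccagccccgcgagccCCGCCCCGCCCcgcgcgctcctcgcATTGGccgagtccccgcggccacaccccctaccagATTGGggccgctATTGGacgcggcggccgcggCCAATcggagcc

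The libraries held between 24895998 and 35181733 expected counts, of which the 76 genes together took between 0.463% and 0.594%. Values are given as CPM, counts divided by the library size in units of 1000000, after TMM scaling of that size. A count of 3, taken as the floor, is worth 0.0870 to 0.112 CPM, a limit that covers counting error only. STAG2, the targeted gene, was at 66.5, 34.8 and 28.8 CPM in WT replicates 1 to 3 and at 16.0, 7.31 and 6.69 CPM in KD replicates 1 to 3. It fell in KD, with a log2 fold change of -2.12 (SE 0.43, adjusted p = 0.0342, edgeR). The melanocyte genes MITF, PMEL, MLANA, TYR, SOX10 and S100B were detected in every library, from 13.7 CPM upward, but not evenly. PMEL was at 3370, 662 and 684 CPM in WT and 1254, 358 and 364 CPM in KD, and MITF at 211, 61.0 and 56.7 CPM in WT and 74.9, 34.4 and 54.2 CPM in KD, both highest in WT replicate 1 and then KD replicate 1. S100B (101 to 145 CPM in WT, 40.8 to 49.5 CPM in KD) and SOX10 (572 to 671 CPM in WT, 324 to 474 CPM in KD) were lower in every KD library. TYR and MLANA overlapped between the groups. TYR was at 380, 140 and 128 CPM in WT and 367, 227 and 233 CPM in KD, higher in KD for replicates 2 and 3. MLANA was at 113, 29.3 and 34.2 CPM in WT and 83.4, 13.7 and 20.1 CPM in KD. KRT5, PDGFRB, PTPRC and CD3E, which mark keratinocytes, fibroblasts and leukocytes, lay between 0 and 0.582 CPM, and KRT14 and COL1A2 between 0.262 and 5.28 CPM. WT replicate 1 also stood apart in its mitochondrial transcripts, which took 5.07% of its counts and between 2.12% and 2.94% of those of the other libraries. Less RNA per cell and fewer cells that express a gene cannot be told apart in bulk RNA.

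The differences of the mitochondrial ribosomal protein genes between KD and WT lay on both sides of 0, and none passed the main test. All 76 passed the filter on low counts. Their log2 fold changes (KD minus WT) had a median of -0.01 and middle quartiles from -0.20 to 0.15, with 37 above 0 and 39 below. Over all 15605 tested genes the median was -0.03, and the quartiles were -0.42 and 0.34. Their summed level was 4773, 4936 and 6301 CPM in WT and 5280, 4878 and 5054 CPM in KD. The ranges overlapped, with means (± SD, n = 3) of 5337 ± 839 CPM in WT and 5070 ± 201 CPM in KD.

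None of the 76 genes passed an adjusted p of 0.05 in edgeR's quasi-likelihood test, a threshold that 2.59% of all tested genes passed. In simulated data the same test called 3 of 86 genes given a log2 change of 1. Those genes were drawn from tested genes of all levels, so this share need not hold for the 76. Not passing still does not mean unchanged. At an unadjusted p under 0.05 edgeR picked 7 genes, 3 higher in KD (MRPL46, MRPL17 and MRPL10) and 4 lower (MRPL33, MRPL41, MRPL11 and MRPL23), against 14.8% of all tested genes. Same-numbered WT and KD libraries deviated together, and a fit with the replicate number as a block called 3 of the genes, with MRPL46 higher and MRPL33 and MRPL41 lower, against 9.52% of all tested genes. DESeq2 called the same 3, against 6.47% of the genes it tested. So did edgeR without the filter on low counts, against 4.54%. The limma-voom test called 0, against 2.64%. Between the WT and KD libraries there was no overlap for 17 of the 76 genes, 8 with KD above WT and 9 with KD below, against 22.3% of all tested genes. All 17 have a two-sided exact permutation p of 0.1, and no smaller one is possible in 3 against 3.

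**Figure D1:**
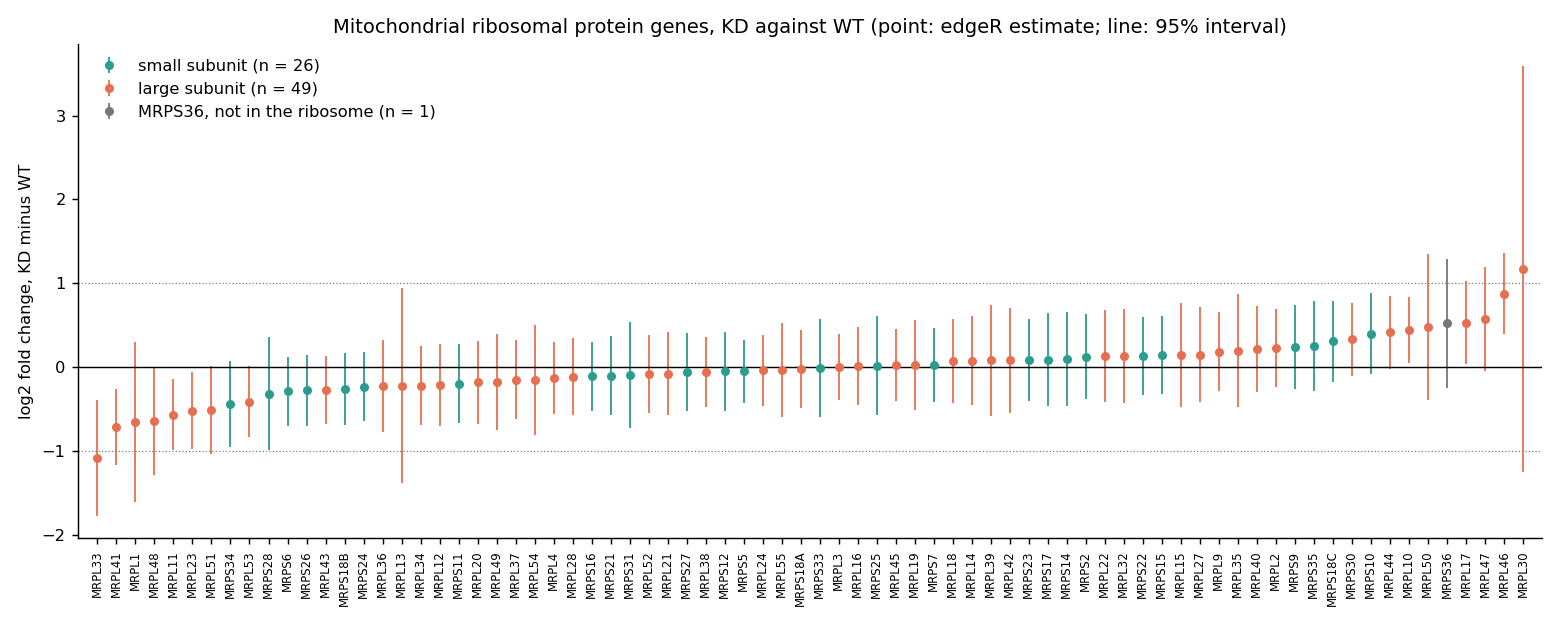
Log2 fold change (KD minus WT, vertical axis) of each of the 76 genes, ordered by its value, with the 95% interval from edgeR as a line and colours for the subunit; dotted lines mark a log2 change of 1 in either direction. The values run from -1.08 for MRPL33 to 1.17 for MRPL30, whose interval is the widest, and 64 of the 76 intervals stay between the dotted lines.

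An interval reaches beyond a given change when the difference is large or when it is uncertain. For 64 of the 76 genes (84.2%), the whole 95% interval of the log2 fold change lay within 1 of 0, that is, within a change of 2-fold, which held for 36.6% of all tested genes. The other 12 genes were MRPL1, MRPL13, MRPL17, MRPL30, MRPL33, MRPL41, MRPL46, MRPL47, MRPL48, MRPL50, MRPL51 and MRPS36. Among them, MRPL17, MRPL33, MRPL41 and MRPL46 had intervals that exclude 0. The median level of the 12 was 17.99 CPM, against 64.8 CPM for the 64.

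The medians of the 2 subunits lay close together. The 26 small-subunit genes had a median log2 fold change of -0.03 (12 above 0 and 14 below, from -0.43 to 0.40), and all 26 intervals stayed within 1 of 0. The 49 large-subunit genes had a median of -0.02 (24 above and 25 below), and 38 of their intervals did. Summed CPM of the small subunit divided by that of the large averaged 0.4997 ± 0.0144 over the WT and 0.4980 ± 0.00499 over the KD libraries (SD, n = 3). Genes with a bacterial counterpart had a median of 0.01 (24 of 46 above 0) and genes of the mitochondrial line a median of -0.06 (12 of 29 above 0). All 3 genes that the block called are of the large subunit.

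MRPL46 encodes a large-subunit protein without a bacterial counterpart (chromosome 15, 89002708 to 89010621 on GRCh37, minus strand, 4 exons in the transcript used). Its level was 24.1, 19.7 and 26.6 CPM in WT and 47.9, 38.5 and 43.1 CPM in KD. All KD libraries lay above all WT libraries, and the means were 23.5 ± 3.52 and 43.1 ± 4.69 CPM (SD, n = 3). The log2 fold change was 0.88 (SE 0.22, 95% interval 0.39 to 1.36), and edgeR gave an adjusted p = 0.0742 without the block and 0.0124 with it. Of the 76 genes it had the smallest p-value.

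MRPL33, the counterpart of a small bacterial large-subunit protein, had the most negative difference (chromosome 2, 27994584 to 28210954 on GRCh37, plus strand). It was at 22.5, 17.4 and 24.5 CPM in WT and at 6.97, 12.8 and 10.7 CPM in KD, with no overlap. The log2 fold change was -1.08 (SE 0.31, 95% interval -1.77 to -0.39), with an edgeR adjusted p = 0.12 without the block and 0.0336 with it. The annotated span of MRPL33 overlaps BRE on the same strand, with no exon in common, and BRE had a log2 fold change of 0.31.

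MRPL41 (chromosome 9, 140446331 to 140447007 on GRCh37, plus strand), a protein of the mitochondrial line only, was among the most abundant of the 76 per length. Its level was 143, 106 and 155 CPM in WT and 79.2, 76.9 and 90.2 CPM in KD. Here too the groups did not overlap, and WT replicate 2 lay nearest to KD. The log2 fold change was -0.71 (SE 0.20, 95% interval -1.17 to -0.26), with an edgeR adjusted p = 0.12 without the block and 0.0181 with it.

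**Figure D2:**
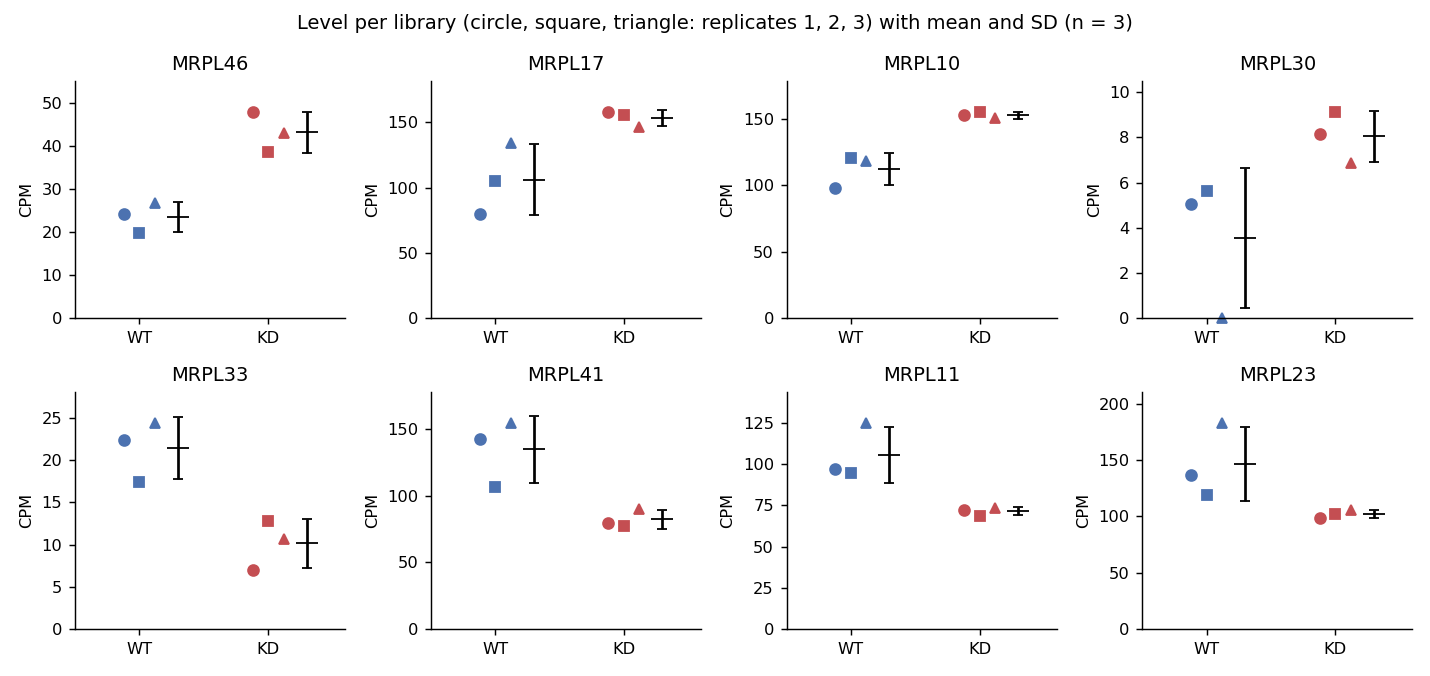
CPM (vertical axes, from 0) of 8 genes in the 3 WT (blue) and 3 KD (red) libraries, with symbols for the replicate number and the mean and SD in black. MRPL46, MRPL17, MRPL10 and MRPL30 lie higher in KD and MRPL33, MRPL41, MRPL11 and MRPL23 lower, with no overlap between the groups, and MRPL30 is at 0 in WT replicate 3.

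Proteins that sit in named places of the bacterial ribosome gave values in both directions. MRPL10 and MRPL11 are the counterparts of proteins at the base of the stalk that recruits translation factors, and MRPL12 is the counterpart of the stalk itself. MRPL10 was at 98.0, 121 and 118 CPM in WT and at 152, 155 and 150 CPM in KD, a log2 difference of 0.44 (edgeR adjusted p = 0.278), and was named here after its values were seen. MRPL11 went the other way, from 97.4, 94.4 and 125 CPM in WT to 72.5, 68.7 and 73.2 CPM in KD, a log2 difference of -0.56 (edgeR adjusted p = 0.179, with the block 0.0502). MRPL12 overlapped between the groups, at 194, 190 and 269 CPM in WT and 207, 154 and 202 CPM in KD.

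MRPL17 and MRPL23, counterparts of proteins near the exit of the tunnel for the nascent chain, also differed in sign. MRPL17 was at 79.4, 105 and 134 CPM in WT and at 158, 156 and 146 CPM in KD, a log2 difference of 0.53 (edgeR adjusted p = 0.295). MRPL23 was at 137, 119 and 183 CPM in WT and at 98.5, 102 and 106 CPM in KD, a log2 difference of -0.52 (edgeR adjusted p = 0.273). In both, the KD libraries lay close together and the WT libraries spread more widely.

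The relatives of the bacterial protein S18, encoded by 3 separate genes, did not pass the test. MRPS18C takes the place of S18 and was counted as its counterpart, whereas MRPS18A and MRPS18B sit elsewhere in the ribosome and were counted with the mitochondrial line. MRPS18C, of the small subunit, was at 22.1, 26.6 and 27.9 CPM in WT and at 31.2, 28.8 and 34.8 CPM in KD, with a log2 difference of 0.31 (95% interval -0.17 to 0.79). MRPS18B, also of the small subunit, had a log2 difference of -0.26 (-0.69 to 0.17). MRPS18A, of the large subunit, had one of -0.02 (-0.49 to 0.45), with KD values between 101 and 140 CPM and WT values between 108 and 148 CPM. MRPS12, the counterpart of the protein that lines the decoding site, stood at 106, 116 and 162 CPM in WT and 128, 118 and 126 CPM in KD, a log2 difference of -0.05 (-0.52 to 0.42). MRPS30 had one of 0.33 (-0.10 to 0.76), with WT between 55.0 and 70.8 CPM and KD between 73.2 and 90.6 CPM. MRPS36, which is not in the ribosome, was at 17.4, 17.03 and 11.8 CPM in WT and 31.4, 22.3 and 13.0 CPM in KD, so that its groups overlapped.

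Some of the genes at lower levels had wide intervals. MRPL30 was at 5.05, 5.62 and 0 CPM in WT and at 8.13, 9.12 and 6.86 CPM in KD, and its log2 fold change of 1.17 had a 95% interval from -1.25 to 3.58. Its exons overlap those of C2orf15 on the same strand, which held 1032 counts on average in WT against 110 for MRPL30, and reads of the 2 genes cannot be told apart there. A second row under the same symbol held between 0 and 53.5 counts. MRPL1, the counterpart of the protein of the other ribosomal stalk, was at 6.56, 6.61 and 8.30 CPM in WT and at 6.504, 2.81 and 4.38 CPM in KD. MRPL50 lay between 4.70 and 6.04 CPM in WT and between 5.11 and 9.24 CPM in KD. MRPL48 was at 21.2, 22.8 and 29.96 CPM in WT and 19.7, 11.2 and 16.6 CPM in KD (log2 difference -0.64, 95% interval -1.28 to 0.00). MRPL47 was at 17.7, 11.7 and 11.9 CPM in WT and 17.6, 23.5 and 20.5 CPM in KD (log2 difference 0.58, 95% interval -0.04 to 1.19). Copies elsewhere in the genome took few reads. The table holds 66 pseudogene rows for 32 of the 76 genes, and they reach more than 5% of the gene's own count only for MRPS31 (28.5%) and MRPL45 (7.05%).

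The highest library was the same for most of the genes. WT replicate 3 held the highest CPM of 44 of the 76 (57.9%), against 17.2% of all tested genes, and KD replicate 1 that of 18. WT replicate 3 minus the mean of the other 2 WT libraries had a median of 0.33 on the log2 scale (62 of 76 above 0). Over all tested genes that median was 0.00. For 960 other tested genes within the genes' middle quartiles of transcript length and GC content it was 0.21. The median transcript of the 76 was 1242 bases long, against 3024 for all tested genes. The 82 tested cytosolic ribosomal protein genes were highest in the same library in 56.1% of cases. Without WT replicate 3 the median log2 fold change of the 76 genes was 0.09, against -0.03 over all genes then tested, and 0 were called. The part of this library, or of transcript length, in the single values was not tested.

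**Figure D3:**
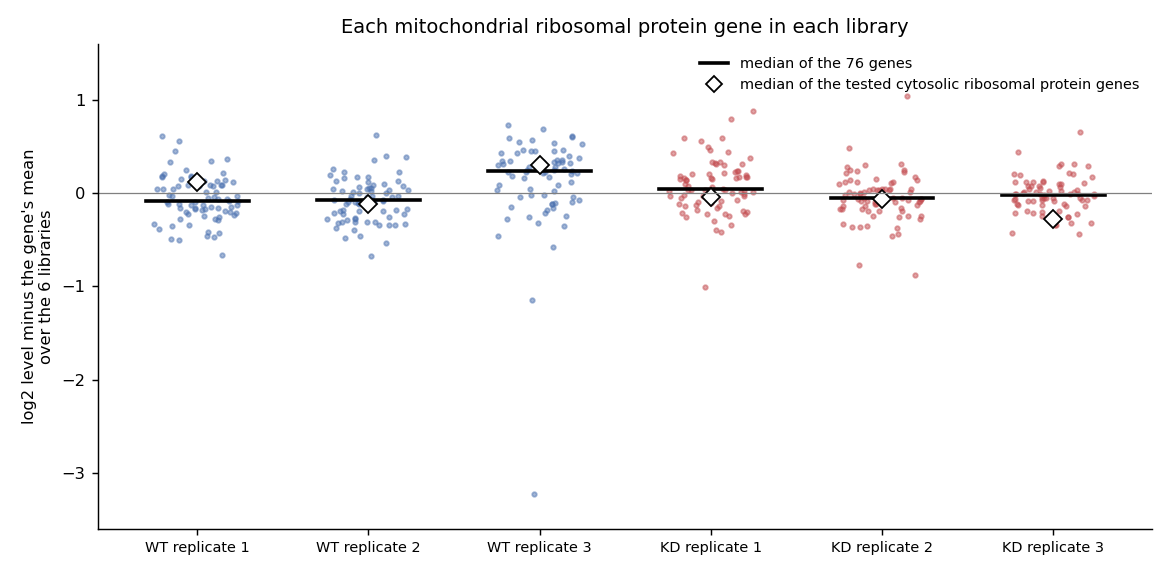
Each point is 1 of the 76 genes in 1 library, drawn as its log2 level (CPM plus 0.5) minus its mean over the 6 libraries; black bars are medians of the 76, and diamonds are medians of the tested cytosolic ribosomal protein genes. The bar of WT replicate 3 is the highest, at 0.24, and the other bars lie between -0.08 and 0.04; the low point in WT replicate 3 is MRPL30.

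Levels between genes were compared per kilobase of the annotated transcript. Over the 74 genes with a length, they ran from 1.26 to 201 CPM per kb, with MRPL12 (201), MRPL20 (191) and MRPL41 (186) on top. In WT these 3 were at 216 ± 44.1, 203 ± 54.2 and 231 ± 43.3 CPM per kb (SD, n = 3), so that their order is not resolved. MRPL42 (1.26), MRPL30 (1.31) and MRPL50 (1.84) were lowest. For MRPL42 the value rests on an annotated transcript of 15557 bases of which 426 are coding, and its level was 45.9 CPM per kb of coding sequence. Per kb of coding sequence MRPL49 (400.2), MRPL12 (342) and MRPS12 (304) were highest and MRPL1 (6.01), MRPS31 (10.6) and MRPL39 (11.8) lowest. MRPL12 was near the top on both scales.

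**Figure D4:**
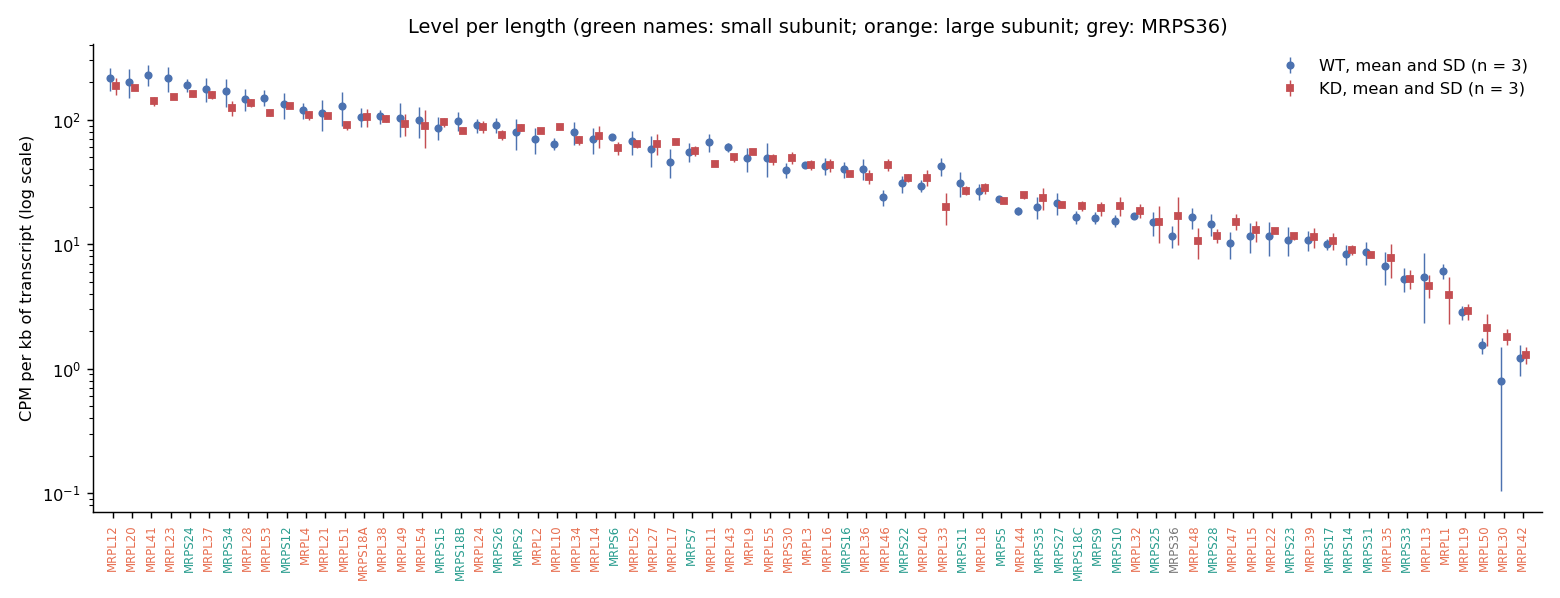
CPM per kb of transcript (vertical axis, log scale) of the 74 genes with an annotated length, as mean and SD of the 3 WT (circles) and 3 KD (squares) libraries, ordered from highest to lowest. The levels fall from 201 for MRPL12 to 1.26 for MRPL42, and the WT and KD symbols of most genes lie close together on this scale.

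Many of the genes start back to back with a neighbour. Within 1000 bp of the start, 25 of the 76 genes had a partner that starts on the opposite strand, in 26 pairings that count MRPL46 with MRPS11 from both sides and a partner with 2 rows once for each row. In 13 of the 26 both genes had the same sign, and 0 partners passed an adjusted p of 0.05 in edgeR, against 2.59% of all tested genes. The block called MRPL46, NCAPD2, the partner of MRPL51, and GGA3, the partner of MRPS7, against 9.52% of all tested genes. MRPL46 and MRPS11 start 320 bp apart and encode a large- and a small-subunit protein. MRPS11 was at 89.3, 92.7 and 133 CPM in WT and at 83.3, 93.5 and 98.4 CPM in KD, with a log2 fold change of -0.19 against 0.88 for MRPL46. The 2 genes of this start region so differ in that the groups were apart for MRPL46 and overlapped for MRPS11. MRPS12 starts 181 bp from SARS2, a mitochondrial aminoacyl-tRNA synthetase gene, and their log2 differences were -0.05 and -0.18.

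Genes with and without a promoter string differed little in their medians, which were not tested. The 13 genes with a YY1 string had a median log2 fold change of 0.08 and the 54 without one a median of -0.03. For the ETS string, the medians were -0.07 with it (28 genes) and 0.03 without (39 genes). The NRF1 string was present in 3 genes, MRPL17, MRPL22 and MRPS18C, whose log2 differences lay between 0.13 and 0.53. Of the 3 matches of MRPL17, 2 overlap on opposite strands.

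The other genes of mitochondrial translation had differences on both sides of 0 too. In edgeR without the block, none of the 7 mitoribosome proteins under other symbols, 17 translation factors, 26 assembly factors, 22 mitochondrial aminoacyl-tRNA synthetases, 5 genes of mitochondrial transcription and 9 transcription regulators passed. Their median log2 fold changes were -0.09, -0.10, 0.01, -0.01, -0.25 and -0.01 in that order. TUFM, the mitochondrial elongation factor Tu, was at 656, 648 and 766 CPM in WT and 516, 545 and 576 CPM in KD, without overlap, and its log2 fold change of -0.34 was the largest of the translation factors (95% interval -0.76 to 0.08). PTCD3, a small-subunit protein, was at 37.2, 17.4 and 24.7 CPM in WT and 19.1, 14.01 and 19.2 CPM in KD (log2 fold change -0.60, edgeR adjusted p = 0.431). RARS2, the mitochondrial arginyl-tRNA synthetase, was at 8.46, 7.08 and 7.61 CPM in WT and 6.38, 3.18 and 3.98 CPM in KD, without overlap (log2 fold change -0.77, edgeR adjusted p = 0.431). NSUN4, an rRNA methyltransferase that acts in ribosome assembly, was at 63.0, 48.1 and 60.1 CPM in WT and at 115, 76.8 and 77.5 CPM in KD, a log2 fold change of 0.65 (edgeR adjusted p = 0.194, with the block 0.0365). TFAM, which packages mitochondrial DNA and starts its transcription, averaged 19.5 ± 4.74 CPM over the WT libraries and 12.4 ± 4.23 CPM over the KD libraries (SD, n = 3), with overlap. Among the regulators, ESRRA was called higher with the block (log2 fold change 0.62 without it), and PPARGC1A was at 7.27 CPM in WT replicate 1 and between 1.19 and 1.82 CPM in the other libraries.

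The mRNAs that mitochondrial ribosomes translate had mostly negative differences and genes listed as mitochondrial stress response mostly positive ones. Calls depended on the test. Of the 13 protein-coding genes of mtDNA, 9 were below 0 (median log2 fold change -0.24), and 0 passed in edgeR without the block. The count was 1 with the block, 1 with DESeq2 and 1 without the low-count filter, against 9.52%, 6.47% and 4.54% of all genes. Their summed level was 38223, 18508 and 21666 CPM in WT and 18969, 22969 and 18336 CPM in KD, so that WT replicate 1 stood above all others and the other WT libraries lay within the range of KD. MT-CO3, a subunit of cytochrome c oxidase, was at 4703, 2327 and 3383 CPM in WT and 1825, 2181 and 1860 CPM in KD, a log2 fold change of -0.83 (edgeR adjusted p = 0.174, with the block 0.0432). Of 22 genes of the mitochondrial stress response, 21 were tested, 16 of them above 0, with a median log2 fold change of 0.43. TRIB3, a target of the stress factor ATF4, was at 250.4, 109 and 101 CPM in WT and at 528, 414 and 392 CPM in KD, a log2 fold change of 1.54 (edgeR adjusted p = 0.0517, with the block 0.000522). The block called 6 of the list, all higher (HSPA9, DDIT3, ASNS, TRIB3, GDF15 and SESN2), against 9.52% of all tested genes. Without the block edgeR called 0, with 5 of the 21 at an unadjusted p under 0.05, against 14.8% of all tested genes. DESeq2 called 3, limma-voom 2 and edgeR without the low-count filter 5, against 6.47%, 2.64% and 4.54% of all genes. In WT replicate 1, DDIT3 and GDF15 were at 40.4 and 410 CPM, against at most 11.8 and 155 CPM in the other WT libraries.

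The cytosolic ribosomal protein genes, which build the ribosome outside mitochondria, had a lower median. Of the 88 genes listed 82 were tested, with a median log2 fold change of -0.22 and 65 below 0. In edgeR 0 were called without the block, against 2.59% of all tested genes. At an unadjusted p under 0.05 edgeR picked 14, all lower, against 14.8% of all tested genes in either direction. DESeq2 called 4 and limma-voom 1, against 6.47% and 2.64% of all genes. With the block 6 were called, all lower (RPL5, RPL7, RPLP0, RPS16, RPS29 and RPSA), against 9.52% of all tested genes. RPLP0, a protein of the cytosolic stalk, had the most negative difference, at 4773, 3322 and 4703 CPM in WT and 2174, 2421 and 1886 CPM in KD. The summed level of these genes was 86098 ± 12324 CPM in WT against 68654 ± 4752 CPM for KD (SD, n = 3). By library it was 88687, 72685 and 96921 CPM in WT and 71836, 70934 and 63191 CPM in KD. All KD libraries so lay below WT, but WT replicate 2 was close to KD replicate 1. The summed levels of the mitochondrial ribosomal protein genes overlapped. The difference between the lists was not tested.

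**Figure D5:**
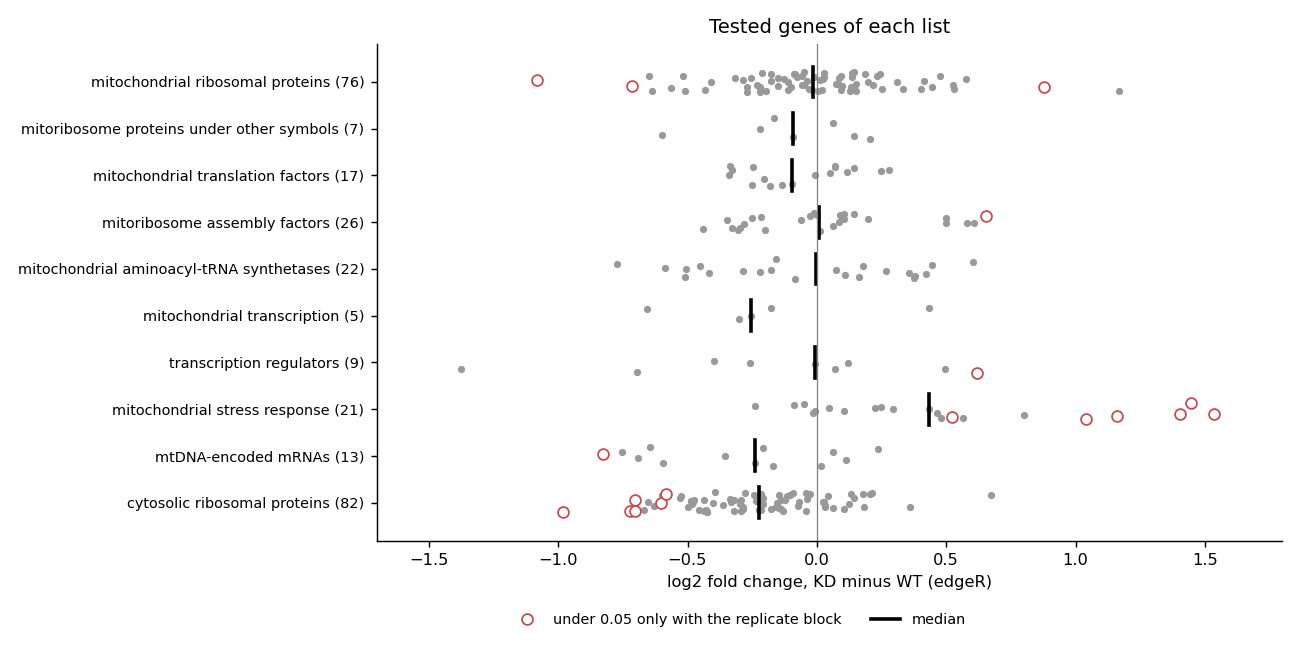
Log2 fold change (KD minus WT, horizontal axis) of each tested gene of the mitochondrial ribosomal proteins and of 9 related lists, with the number of tested genes in brackets and the median as a bar; open circles passed an adjusted p of 0.05 in edgeR only with the replicate block. The 76 genes centre on -0.01, the stress response list on 0.43 and the cytosolic ribosomal proteins on -0.22.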

How the data were processed

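Polyadenylated RNA of M14 cells was made into directional libraries and read from 1 end, 50 bases at a time. The authors used STAR on hg19 and deposited the expected counts that RSEM estimated per gene, in which a read matching several genes is shared out among them. The counts were not scaled, and the strand setting and the annotation release are not given in the sources used here. The genes and all lists were chosen with earlier results of these data known.

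Expected counts were rounded, filtered by filterByExpr (15605 genes kept), scaled by TMM and compared, KD against WT, by the quasi-likelihood test of edgeR 4.0.16 in R 4.3.3, p-values being adjusted by Benjamini-Hochberg over all 15605 genes, with a threshold of 0.05. DESeq2 1.42.0 and limma 3.58.1 (voom) were alternatives. The other alternatives were RLE, upper-quartile and no scaling, no low-count filter, at least 10 counts in every library, leaving out each library, adding pseudogene rows, and leaving out mtDNA genes. The scripts were tested on simulated data, in which genes of all levels were given a change. At a log2 change of 1 in either direction edgeR without the block called 3 of 86 genes, and DESeq2 21. At a log2 change of 2 they called 61 and 72 of 99. Of 14584 unchanged genes, edgeR without the block called 1 and DESeq2 40. Replicate numbers come from the labels. Deviations of same-numbered WT and KD libraries from their group means correlated at 0.599, 0.473 and 0.374 over 8932 genes. Differently numbered libraries gave values from -0.549 to 0.300. The positive ones were 0.300 for WT replicate 2 with KD replicate 3 and 0.191 for WT replicate 3 with KD replicate 2. Over the 76 genes the same-numbered values were 0.187, 0.290 and 0.262. The numbers were taken as pairs, which the labels do not state, and each value was also fitted with a replicate block.

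Named genes were the 6 highest and 6 lowest log2 fold changes, the 3 highest and 3 lowest levels per length, and MRPS18A, MRPS18B, MRPS18C, MRPL12, MRPS12, MRPS30 and MRPS36. In the related lists, genes called and the largest change were named, and some entries of the cytosolic list are not reported here. Other genes were chosen after their values were seen. Depth ran from 24895998 to 35181733 counts per library, and intervals of a log2 fold change are at 95%. Lengths came from the canonical transcript in GENCODE 44 on GRCh37, and promoters from RefSeq on GRCh38.p14.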

Additional observations from a re-analysis of the deposited data

How the results depend on the processing

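The counts of called mitochondrial ribosomal protein genes were 0 higher and 0 lower in edgeR. They became 1 higher and 2 lower with the replicate block, with DESeq2 and without the low-count filter, and stayed at 0 under the other alternatives, whichever library was left out. Among the 108 genes of the related lists (without mtDNA-encoded mRNAs and cytosolic ribosomal proteins), 0 were called, against 8 with the replicate block, 1 with RLE scaling, 3 with DESeq2, 2 with limma-voom, 5 without the low-count filter, 1 with at least 10 counts in every library and 10 without both libraries numbered 1. Leaving out 1 library gave from 0 to 9, the 9 without WT replicate 1. Over all tested genes, 404 were called, 1486 with the replicate block, 988 with DESeq2, 1103 without the low-count filter and from 121 to 531 with 1 library left out. The median log2 fold change of the 76 genes lay between -0.09 and 0.09 under all 19 alternatives.

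For the 20 named genes, 358 of 379 alternative values kept direction and side of the threshold, and 16 genes never changed sign. The other 4 lie near 0. MRPS18A changed to 0.000396 with library sizes alone and to 0.0395 and 0.0999 without both libraries numbered 2 or 3, MRPL20 to 0.00331 and MRPS12 to 0.13 without those numbered 3, and MRPL42 to -0.0775 without those numbered 2. With 1 library left out, the values of MRPS18A ran from -0.13 to 0.13, those of MRPL20 from -0.36 to 0.0295, those of MRPS12 from -0.18 to 0.15 and those of MRPL42 from -0.0649 to 0.33. MRPL46 lay between 0.76 and 0.97, MRPL33 between -1.41 and -0.83 and MRPL41 between -0.86 and -0.61. The replicate block changed no call beyond those given beside the results, and the cause of these shifts was not tested. The alternatives without both libraries of a number were chosen after seeing the data. With 3 libraries a group, the 95% interval reached beyond a 2-fold change for 12 of the 76 genes, whose mean levels ran from 5.80 to 129.7 CPM.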
